A study of Mus musculus with 16 samples.

Results

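The 8 genes described here are the G1 cyclins and the kinases they activate: the D cyclins Ccnd1, Ccnd2 and Ccnd3 with Cdk4 and Cdk6, and the E cyclins Ccne1 and Ccne2 with Cdk2. They were chosen by name, as the genes carrying these symbols among 55487 gene identifiers, and all 8 were among the 24252 genes that passed the filter on low counts. Their RNA was sequenced in 16 samples of mammary organoids of the mouse, that is, of small tissue-like structures that breast cells form in culture. WT organoids (n = 3) came from normal breast. Organoids mutant for PIK3CA (n = 4), for HER2 (n = 4) or for both genes (n = 5, called the double mutant) came from breast tumors. All were cultured in the same kind of medium, which contained epidermal growth factor, N-acetyl-cysteine, the supplement B27 and medium conditioned with Rspo1 and Noggin. The series title gives the alleles as HER2 V777L and PIK3CA H1047R, in the receptor tyrosine kinase that the mouse gene Erbb2 encodes and in a catalytic subunit of phosphoinositide 3-kinase. The labels used here do not say how the alleles were introduced, which promoter or Cre drives them, the age of the mice, or which samples came from separate mice or cultures. P-values therefore measure the spread between these samples, part of which may be technical. Wherever mutants are compared with WT, genotype and tissue of origin differ together, and there the effects of both cannot be told apart.

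Cells commit to division in G1. D cyclins, induced by growth factor signals, bind CDK4 or CDK6, and E cyclins bind CDK2, and both kinds of complex phosphorylate the retinoblastoma protein and its relatives, the pocket proteins. Phosphorylation releases E2F transcription factors, which switch on genes of DNA synthesis and Ccne1 and Ccne2 themselves. Inhibitors such as p21 (Cdkn1a) and p16 (Cdkn2a) bind the kinases or their complexes. In the mammary gland cyclin D1 is needed for alveolar growth in pregnancy and is a well-studied effector of HER2 in tumors.

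Total counts were 45545182 to 64168308 per sample, and 3 counts corresponded to 0.0468 to 0.0659 CPM (counts scaled to the library total times its TMM factor), leaving that factor out for this floor, well below the level of every member in every sample. The labels were checked against the mutated genes and tissue markers. Erbb2 had mean levels of 156 CPM in WT, 168 in PIK3CA mutants, 3600 in HER2 mutants and 2031 in double mutants, so its level followed the HER2 labels. Pik3ca had mean levels of 81.3, 101, 67.0 and 115 CPM in the same order, which do not show which allele was transcribed. The epithelial markers Epcam (479 to 699 CPM) and Cdh1 (361 to 859 CPM) were high in all 16 samples. Of other cell types, 13 immune markers summed to 1089 to 3977 CPM in WT, 611 to 774 in PIK3CA mutants, 272 to 456 in HER2 mutants and 240 to 426 in double mutants. One of them, Cd14, singled out after its values were seen, made up most of the mutant sums in all samples but HER2 replicate 1. The other 12 summed to 561 to 3486 CPM in WT, 14.5 to 37.7 in PIK3CA, 9.60 to 227 in HER2 and 13.3 to 68.7 in double mutants. By edgeR's test 10, 8 and 10 of the 12 immune markers tested were lower than in WT in PIK3CA, HER2 and double mutants. A list of 9 fibroblast markers summed to 935 to 2946, 430 to 1231, 46.2 to 788 and 436 to 1597 CPM, and 7 endothelial markers to at most 29.3 CPM. By the same test 1, 2 and 7 of the fibroblast markers were lower in PIK3CA, HER2 and double mutants than in WT, and 1, 1 and 3 of the 5 endothelial markers tested. Between mutants, 6 immune markers and 1 fibroblast marker were lower in double than in HER2 mutants. In HER2 against PIK3CA mutants edgeR called 1 immune marker, Cd14, lower and none higher. Of the 12 tested, however, 11 had estimates above 0, and the median log2 fold change was 2.98. By edgeR 11 had an unadjusted p under 0.05 in either direction, beside 19.4% of all genes. DESeq2 called 5 higher and 1 lower. Of 8 basal and myoepithelial markers, 1 was lower than in WT in PIK3CA mutants and 3 in HER2 mutants. In double mutants 1 was higher and 1 lower than in WT. Among mutants, 4 were lower in HER2 than in PIK3CA mutants, and 1 was above HER2 mutants in double mutants. Of 10 luminal markers, 1 was lower than in WT in PIK3CA mutants, and in double mutants 1 was higher and 1 lower. Among mutants, 2 were lower in HER2 than in PIK3CA mutants, and 3 were above HER2 mutants in double mutants. Of 6 epithelial markers, 1 was higher than in WT in HER2 and in double mutants. These markers move with the genotypes compared below, and their part in the differences given for the members and their pathway was not tested.

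The stretches of DNA just before the start sites of 4 of the genes are shown because they set the members side by side: the paralogs Cdk4 and Cdk6, which stood at unlike levels, and Ccne1 with its partner Cdk2. Each line gives the 250 bases before the start site, 5′ to 3′ on the gene's strand, from RefSeq's GRCm38.p6 table, which had an entry for 5 of the 8 members (Ccnd3 is the fifth). Capitals mark CACGTG, the E-box word bound by MYC and related factors, and TTTCCCGC, TTTGGCGC, TTTCGCGC or TTTGCCGC, words of the E2F type, searched on both strands. No searched word overlapped another in these windows. The start sites are those of RefSeq, while the gene limits given below are those of GENCODE M21. By these limits the Cdk6 window lies inside its gene, and the windows of Cdk4 and Ccne1 end inside theirs. The windows are chr10:127063285-127063534 (plus strand) for Cdk4, chr5:3343643-3343892 (plus) for Cdk6, chr7:38107491-38107740 (minus) for Ccne1 and chr10:128705052-128705301 (minus) for Cdk2.
Cdk4: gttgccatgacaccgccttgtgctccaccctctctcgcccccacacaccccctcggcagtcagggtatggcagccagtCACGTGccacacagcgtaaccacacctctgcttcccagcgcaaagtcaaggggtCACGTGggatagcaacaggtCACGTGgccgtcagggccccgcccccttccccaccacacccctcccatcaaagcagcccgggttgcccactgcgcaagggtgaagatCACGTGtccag
Cdk6: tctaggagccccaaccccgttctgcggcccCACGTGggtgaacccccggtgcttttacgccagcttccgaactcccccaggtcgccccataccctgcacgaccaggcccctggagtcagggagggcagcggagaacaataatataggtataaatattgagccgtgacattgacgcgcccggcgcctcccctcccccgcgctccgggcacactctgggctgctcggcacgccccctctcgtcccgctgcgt
Ccne1: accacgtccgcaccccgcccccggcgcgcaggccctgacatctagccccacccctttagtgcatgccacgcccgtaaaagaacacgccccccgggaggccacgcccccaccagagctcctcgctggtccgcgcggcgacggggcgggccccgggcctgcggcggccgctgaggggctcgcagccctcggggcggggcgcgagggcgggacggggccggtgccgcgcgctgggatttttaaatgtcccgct
Cdk2: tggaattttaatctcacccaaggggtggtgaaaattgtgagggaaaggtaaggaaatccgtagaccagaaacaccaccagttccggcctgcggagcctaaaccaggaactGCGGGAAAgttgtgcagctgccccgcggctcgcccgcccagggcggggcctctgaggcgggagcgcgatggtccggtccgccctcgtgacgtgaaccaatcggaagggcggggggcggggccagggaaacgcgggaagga
The Cdk4 window holds CACGTG 4 times, starting at bases 79, 133, 153 and 240 counted from its first base, and the Cdk6 window holds it once, at base 31. At least 1 CACGTG was found in 6.02% of 32851 such windows, and 4 or more in 0.0213%. The Cdk2 window holds 1 E2F-type word on the reverse strand, at base 111, and 1.86% of windows held any. GGGCGG, the word of the SP1 factors, occurred 4 times in the Ccne1 window, 5 times in that of Cdk2, once in that of Cdk4 and in none of Cdk6. At least 1 GGGCGG was found in 32.7% of windows, and 4 or more in 4.09%. A match is a description of letters, and binding was not measured.

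Levels were first compared between the genes per kilobase of exon, in GENCODE M21 on GRCm38. The strongly expressed members were Cdk4 and Ccnd1. In WT, Cdk4 stood highest at 34.4 ± 3.95 CPM per kilobase (SD, n = 3) and Ccnd1 next at 17.4 ± 7.11 (SD, n = 3), with no overlap between them. In double mutants the order was turned, with Ccnd1 at 91.5 ± 23.3 (SD, n = 5) and Cdk4 at 42.7 ± 10.8 (SD, n = 5), again with no overlap. In PIK3CA and HER2 mutants the mean of Ccnd1 was also the higher, 56.8 ± 14.8 (SD, n = 4) and 54.2 ± 36.4 (SD, n = 4), but the ranges of both genes overlapped. In HER2 mutants the medians stood in the other order, 36.9 for Ccnd1 and 37.6 for Cdk4, and Ccnd1 reached 109 in replicate 1. Ccnd3, Cdk6 and Cdk2 formed a middle group in all genotypes, with means of 3.13 to 7.34 CPM per kilobase. Ccnd2 followed at 1.41 to 2.51, and the E cyclins stood lowest, at 0.447 to 1.89. Summed over the paralogs, WT had 23.8 ± 7.36 CPM per kilobase of D cyclins (SD, n = 3). PIK3CA mutants had 65.6 ± 14.7 (SD, n = 4), HER2 mutants 63.2 ± 37.7 (SD, n = 4), and the highest sum was that of double mutants, 101 ± 22.02 (SD, n = 5). The sum of Cdk4 and Cdk6 had means closer together, of 37.5, 43.9, 46.1 and 49.6 in the same order. The E cyclins together were at 7.68 per 100 of the D cyclins in WT and at 3.27, 4.36 and 3.12 per 100 in PIK3CA, HER2 and double mutants.

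**Figure D1:**
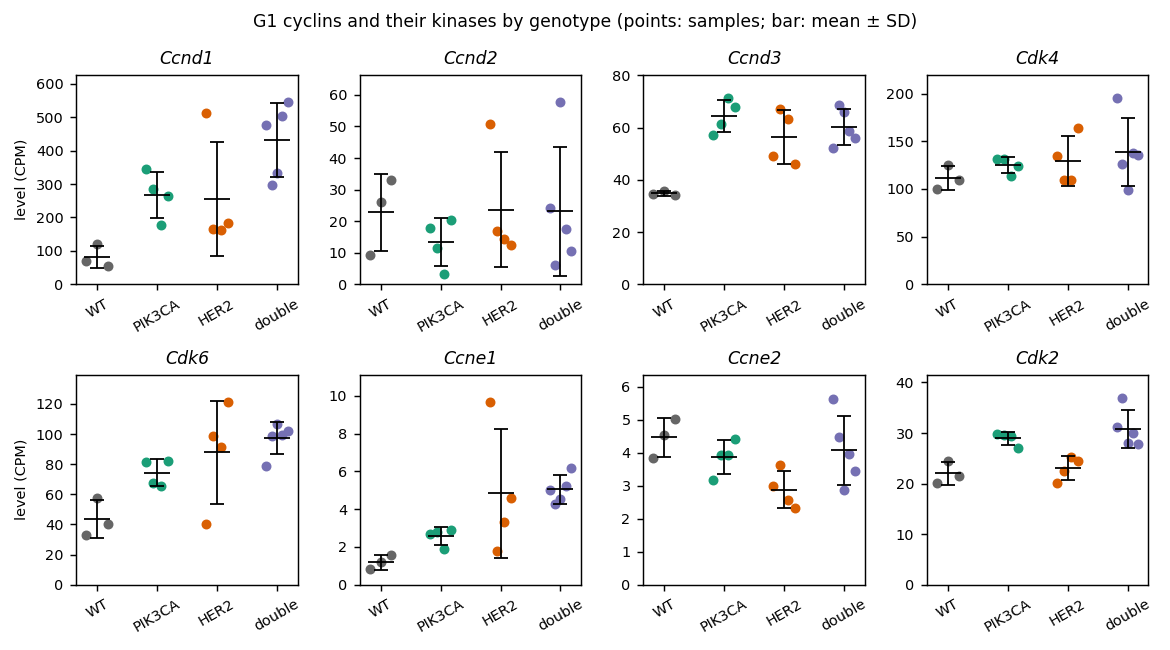
Level of each member in CPM on the vertical axis, by genotype, 1 point per sample, with the mean and SD as bars; each panel has its own scale from 0. Ccnd1, Ccnd3 and Ccne1 have every mutant point above the WT points, and the groups of Ccnd2 and Cdk4 overlap. HER2 replicate 1 is the highest HER2 point in Ccnd1, Ccnd2 and Ccne1 and the lowest in Cdk6.

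Against WT, 2 of the 8 members rose in PIK3CA mutants (Ccnd1 and Ccnd3), 4 in HER2 mutants (Ccnd1, Ccnd3, Cdk6 and Ccne1) and 5 in double mutants (the same 4 and Cdk2), by edgeR's quasi-likelihood test with an adjusted p under 0.05 over all genes tested. None fell. Of all 24252 genes, 1.49% rose in PIK3CA mutants, 4.75% in HER2 mutants and 5.03% in double mutants, 3.03%, 5.63% and 6.72% fell, and 4.52%, 10.4% and 11.8% changed in either direction. The members' median log2 fold change was 0.58, 0.45 and 0.64 in PIK3CA, HER2 and double mutants, beside -0.03, 0.03 and 0.01 over all genes. In 5, 3 and 5 members every mutant sample was above every WT sample, an order found in 13.8%, 9.81% and 9.68% of all genes. In a fit of HER2 mutants and WT alone edgeR called 0 of the 4, while a fit of PIK3CA mutants and WT alone called 5 members, also Cdk6, Ccne1 and Cdk2 (adjusted p 0.023, 0.0269 and 0.021). These comparisons share the 3 WT samples. In bulk RNA, fewer cells of a type and less RNA per cell cannot be told apart.

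**Figure D2:**
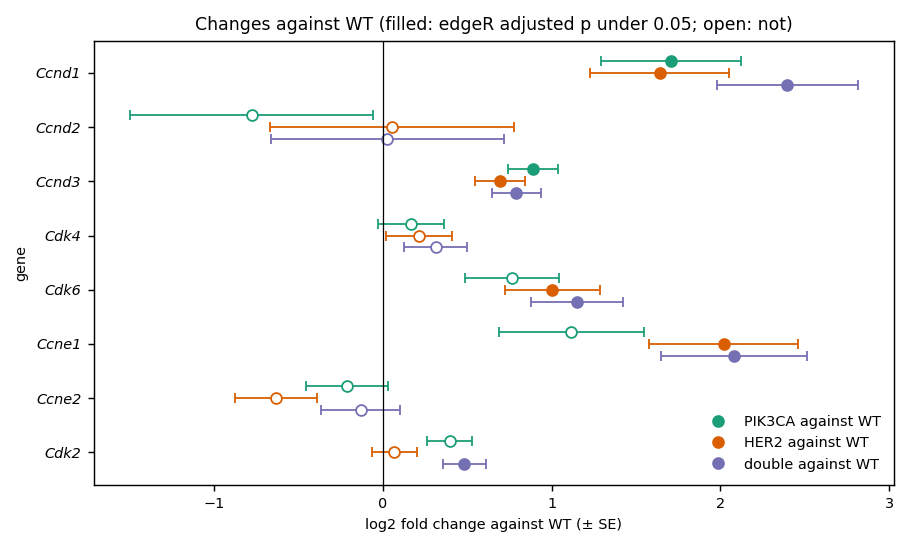
Log2 fold change of each member against WT with its standard error (horizontal axis), for PIK3CA, HER2 and double mutants; filled points have an edgeR adjusted p under 0.05. The points of all members except Ccnd2 and Ccne2 lie to the right of 0, those of Ccnd3 with short bars. Those of Ccne2 lie to the left, and Ccnd2 has the longest bars.

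Ccnd1 (ENSMUSG00000070348, chr7:144929931-144939925, minus strand) encodes cyclin D1, the D cyclin best known in breast epithelium. It had 70.7, 120 and 55.5 CPM in the WT samples, and 344, 286, 176 and 265 CPM in PIK3CA mutants. HER2 mutants had 512, 164, 162 and 183 CPM and double mutants 477, 297, 332, 504 and 545 CPM. Every mutant sample was above every WT sample, and within HER2 mutants replicate 1 had 3.16 times the level of the lowest. Relative to WT, the log2 fold change was 1.71 in PIK3CA mutants (edgeR adjusted p 0.0256, SE 0.413), 1.64 in HER2 mutants (edgeR adjusted p 0.0208, SE 0.412) and 2.40 in double mutants (edgeR adjusted p 0.00165, SE 0.417). The rise in PIK3CA mutants did not pass without WT replicate 1 or 3 or without PIK3CA replicate 1, 2 or 4 (edgeR adjusted p 0.0509 to 0.168), and that in HER2 mutants did not pass without WT replicate 1 or 3 (edgeR adjusted p 0.0906 and 0.118) or in a fit of HER2 mutants and WT alone (0.119). Without HER2 replicate 1 the rise in HER2 mutants was 1.05 (edgeR adjusted p 0.0373). The rise in double mutants passed in all 8 fits that left out a sample of these genotypes. Exons of Ccnd1 overlap LTO1 on the other strand over 23.4% of their length, and the strand setting of the counting is not given in the sources used here. LTO1 was at mean levels of 11.3 to 14.8 CPM and did not pass the test in any comparison.

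Ccnd2 (ENSMUSG00000000184, chr6:127125162-127152193, minus strand) encodes cyclin D2 and was the member with the widest spread in log2 CPM in WT, PIK3CA and double mutants, while in HER2 mutants Ccne1 had the widest. It had 9.14, 26.2 and 33.0 CPM in WT, 17.8, 11.7, 3.32 and 20.4 in PIK3CA mutants, 50.8, 17.0, 14.3 and 12.4 in HER2 mutants and 24.03, 6.21, 57.7, 17.6 and 10.6 in double mutants. The highest sample was 9.28 times the lowest among double mutants, and all groups overlapped. Relative to WT its log2 fold change was -0.78 in PIK3CA mutants (SE 0.719), 0.05 in HER2 mutants (SE 0.724) and 0.03 in double mutants (SE 0.692), with edgeR adjusted p of 0.654, 0.974 and 0.987. These were the largest standard errors among the members.

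Ccnd3 (ENSMUSG00000034165, chr17:47505051-47599691, plus strand) encodes cyclin D3, which is widely expressed and also works in differentiating cells. The WT samples lay close together at 34.5, 35.9 and 34.1 CPM. PIK3CA mutants had 57.2, 61.5, 71.2 and 67.8 CPM, HER2 mutants 49.1, 67.0, 63.1 and 46.2, and double mutants 52.1, 68.5, 66.1, 58.7 and 56.0. No mutant sample reached down to the WT range. The log2 fold change was 0.89 in PIK3CA mutants (edgeR adjusted p 0.00254, SE 0.149), 0.69 in HER2 mutants (edgeR adjusted p 0.00918, SE 0.148) and 0.79 in double mutants (edgeR adjusted p 0.00214, SE 0.143). The rise in HER2 mutants did not pass without WT replicate 3 (edgeR adjusted p 0.0553) or in a fit of HER2 mutants and WT alone (0.0687). The rises in PIK3CA and double mutants passed without any single sample.

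Cdk4 (ENSMUSG00000006728, chr10:127063534-127067920, plus strand) and Cdk6 (ENSMUSG00000040274, chr5:3341485-3531008, plus strand) encode the kinases that D cyclins activate. Cdk4 had 99.97, 125 and 110 CPM in WT, 132, 132, 113 and 125 in PIK3CA mutants, 135, 110, 109 and 164 in HER2 mutants and 195, 127, 98.7, 138 and 136 in double mutants. Its groups overlapped, and its log2 fold changes against WT, 0.17, 0.21 and 0.31 for PIK3CA, HER2 and double mutants (SE 0.195, 0.195 and 0.188) did not pass (edgeR adjusted p 0.741, 0.535 and 0.308). Cdk6 had 33.2, 57.7 and 40.4 CPM in WT. It had 81.7, 67.8, 65.7 and 82.1 CPM in PIK3CA mutants, 40.0, 98.8, 91.1 and 121 in HER2 mutants and 78.9, 98.9, 106, 99.3 and 102 in double mutants. All PIK3CA and double mutant samples were above the WT samples, while HER2 replicate 1 lay within the WT range. Cdk6 rose in HER2 mutants (log2 fold change 1.00, edgeR adjusted p 0.0328, SE 0.279) and in double mutants (1.15, edgeR adjusted p 0.0118, SE 0.272), and was at 0.76 in PIK3CA mutants (edgeR adjusted p 0.151, SE 0.277).

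The rise of Cdk6 in HER2 mutants did not pass without WT replicate 1 or 3 or HER2 replicate 2, 3 or 4 (edgeR adjusted p 0.055 to 0.15) or in a fit of HER2 mutants and WT alone (0.157). Without HER2 replicate 1 it was 1.25 (edgeR adjusted p 0.00169). In double mutants it did not pass without WT replicate 1 or 3 (edgeR adjusted p 0.0766 and 0.0725). In a fit of PIK3CA mutants and WT alone, Cdk6 passed with the same log2 fold change of 0.76 (edgeR adjusted p 0.023). Tspan31 overlaps 19.7% of the exons of Cdk4 on the other strand, at mean levels of 34.0 to 45.5 CPM.

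Ccne1 (ENSMUSG00000002068, chr7:38097984-38107534, minus strand, with no overlapping gene) encodes cyclin E1, a partner of CDK2 at the entry into DNA synthesis. It was the lowest member in WT, at 0.804, 1.18 and 1.58 CPM. PIK3CA mutants had 2.70, 2.81, 1.90 and 2.91 CPM, HER2 mutants 9.66, 1.77, 3.34 and 4.56, and double mutants 5.02, 4.26, 4.51, 5.23 and 6.20. Every mutant sample was above every WT sample, and HER2 mutants spanned a 5.45-fold range. The log2 fold change was 1.12 in PIK3CA mutants (edgeR adjusted p 0.182, SE 0.430), 2.02 in HER2 mutants (edgeR adjusted p 0.0104, SE 0.443) and 2.08 in double mutants (edgeR adjusted p 0.00535, SE 0.433). In HER2 mutants it did not pass without WT replicate 1 (edgeR adjusted p 0.0581) or in a fit of HER2 mutants and WT alone (0.107). In double mutants it passed without any single sample.

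Ccne2 (ENSMUSG00000028212, chr4:11191351-11204779, plus strand), which encodes cyclin E2, had no estimate above 0 against WT. It had 3.85, 4.54 and 5.02 CPM in WT, 3.18, 3.92, 3.92 and 4.43 in PIK3CA mutants, 2.98, 3.64, 2.58 and 2.33 in HER2 mutants and 5.62, 4.49, 2.89, 3.95 and 3.44 in double mutants. All HER2 mutant samples were below all WT samples, an order that 12.4% of all genes showed, and the log2 fold change there was -0.63 (edgeR adjusted p 0.111, SE 0.243). It was -0.21 in PIK3CA mutants (SE 0.243) and -0.13 in double mutants (SE 0.232). Ints8 overlaps 17.4% of the exons of Ccne2 on the other strand and had mean levels of 30.01 to 38.9 CPM, above those of Ccne2, so reads of Ints8 may be among the counts of Ccne2 if the counting ignored strand. Ints8 itself was at -0.35 in HER2 mutants against WT (adjusted p 0.104 by edgeR).

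Cdk2 (ENSMUSG00000025358, chr10:128697939-128705031, minus strand) encodes the kinase that E cyclins activate. It had 20.1, 24.5 and 21.4 CPM in WT, 29.8, 29.7, 29.3 and 27.1 in PIK3CA mutants, 20.1, 22.4, 25.2 and 24.5 in HER2 mutants and 31.1, 36.9, 28.01, 30.1 and 27.8 in double mutants. The samples with a PIK3CA mutation, alone or with HER2, were all above the WT and HER2 mutant samples. The share of all genes with this order is not given here. In the fit of all genotypes edgeR called Cdk2 only in double mutants against WT. Relative to WT, the log2 fold change was 0.48 in double mutants (edgeR adjusted p 0.0222, SE 0.128), 0.40 in PIK3CA mutants (edgeR adjusted p 0.115, SE 0.133) and 0.07 in HER2 mutants (edgeR adjusted p 0.792, SE 0.132). The rise in double mutants did not pass without WT replicate 1 or 3 (edgeR adjusted p 0.125 and 0.117), with no filter on low counts (0.073) or in a fit of double mutants and WT alone (0.0533). DESeq2 also called Cdk2 in PIK3CA mutants against WT (adjusted p 0.0358) and in double against HER2 mutants (adjusted p 0.0104).

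Between the mutant genotypes, all from tumors, edgeR called none of the 8 members, where it called 0.672% of all genes in double against PIK3CA mutants, 2.5% in double against HER2 mutants and 4.41% in HER2 against PIK3CA mutants. At an unadjusted p under 0.05 there were 1, 3 and 2 members, beside 12.4%, 17.8% and 19.4% of all genes, and DESeq2 called 0, 1 and 0 members. In double against PIK3CA mutants the member with the unadjusted p was Ccne1, whose 5 double mutant samples all exceeded the 4 PIK3CA mutant samples (log2 fold change 0.96, edgeR adjusted p 0.286, SE 0.369). Such an order was found in 3.42% of all genes. In a fit of these genotypes alone Ccne1 passed (edgeR adjusted p 0.0431). In double against HER2 mutants the members were Cdk2 (0.42, edgeR adjusted p 0.0652, SE 0.117), Ccnd1 (0.76, edgeR adjusted p 0.272, SE 0.349) and Ccne2 (0.50, edgeR adjusted p 0.237, SE 0.217). Cdk2 was higher in all double mutants than in all HER2 mutants, as were 2.21% of genes. Without HER2 replicate 1, Ccnd1 was 1.34 higher on the log2 scale in double mutants and passed (edgeR adjusted p 0.0218). In HER2 against PIK3CA mutants the members were Cdk2 (-0.33, edgeR adjusted p 0.142, SE 0.122), lower in all HER2 mutants as were 6.87% of genes, and Ccne1 (0.90, edgeR adjusted p 0.204, SE 0.385).

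The interaction compared the double mutant with what adding the log2 changes of both single mutants gives. By edgeR it passed for none of the 8 members, where it passed for 1.06% of all genes. For 2 members, Ccnd3 and Ccne2, the unadjusted p was under 0.05, as for 13.6% of all genes. Ccnd3 had an estimate of -0.79 (edgeR adjusted p 0.0676, SE 0.195), with a mean of 64.4 CPM in PIK3CA mutants, 56.3 in HER2 mutants and 60.3 in double mutants. DESeq2 called it (-0.80, adjusted p 0.0099), and so did edgeR without HER2 replicate 1, HER2 replicate 4 or double mutant replicate 2 (adjusted p 0.0418, 0.0366 and 0.0483). Ccnd1 and Ccne1 had estimates of -0.95 (SE 0.525) and -1.06 (SE 0.555). The WT samples enter this comparison, and here the interaction and the tissue of origin cannot be told apart.

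The balance between paralogs was measured as the share of each in its family by CPM per kilobase. Ccnd1 made up most of the D cyclin RNA in every sample, 61.5% to 78.7% in WT, 81.6% to 89.7% in PIK3CA mutants, 78.7% to 90.8% in HER2 mutants and 83.8% to 93.9% in double mutants. WT replicate 2 reached 78.69% and HER2 replicate 2 had 78.71%, so these ranges nearly touch. The share of Ccnd3 had means of 17.6%, 11.9%, 12.5% and 7.25% in WT, PIK3CA, HER2 and double mutants even though its level was higher in all mutants. Ccnd2 made up 10.6% ± 6.92 in WT (SD, n = 3) and 2.04% to 3.75% on average in the mutants.

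Per kilobase, the E cyclins stood in a different order in WT and in double mutants. Ccne1 was 21.5%, 25.4% and 29.3% of the E cyclin RNA in WT, and 52.7%, 48.4%, 38.9% and 46.3% in PIK3CA mutants. It was 81.0%, 39.0%, 62.9% and 72.0% in HER2 mutants and 54.0%, 55.5%, 67.3%, 63.5% and 70.3% in double mutants. By this measure cyclin E2 RNA was the larger part in all WT samples and cyclin E1 RNA in all double mutants. In raw counts, not divided by length, double mutant replicates 1 and 2 had more Ccne2 (317 and 214) than Ccne1 (283 and 203). Their order therefore depends on the exon lengths used. Per kilobase, Cdk6 was the smaller part beside Cdk4 in every sample. It made up 7.16% to 9.66% in WT, 10.7% to 13.3% in PIK3CA mutants, 6.44% to 17.3% in HER2 mutants and 8.58% to 20.04% in double mutants. The lowest of the HER2 and of the double mutant shares belonged to replicate 1 of each. In raw counts double mutant replicate 3 had more Cdk6 (5424) than Cdk4 (5026), so there this order also depends on the exon lengths.

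**Figure D3:**
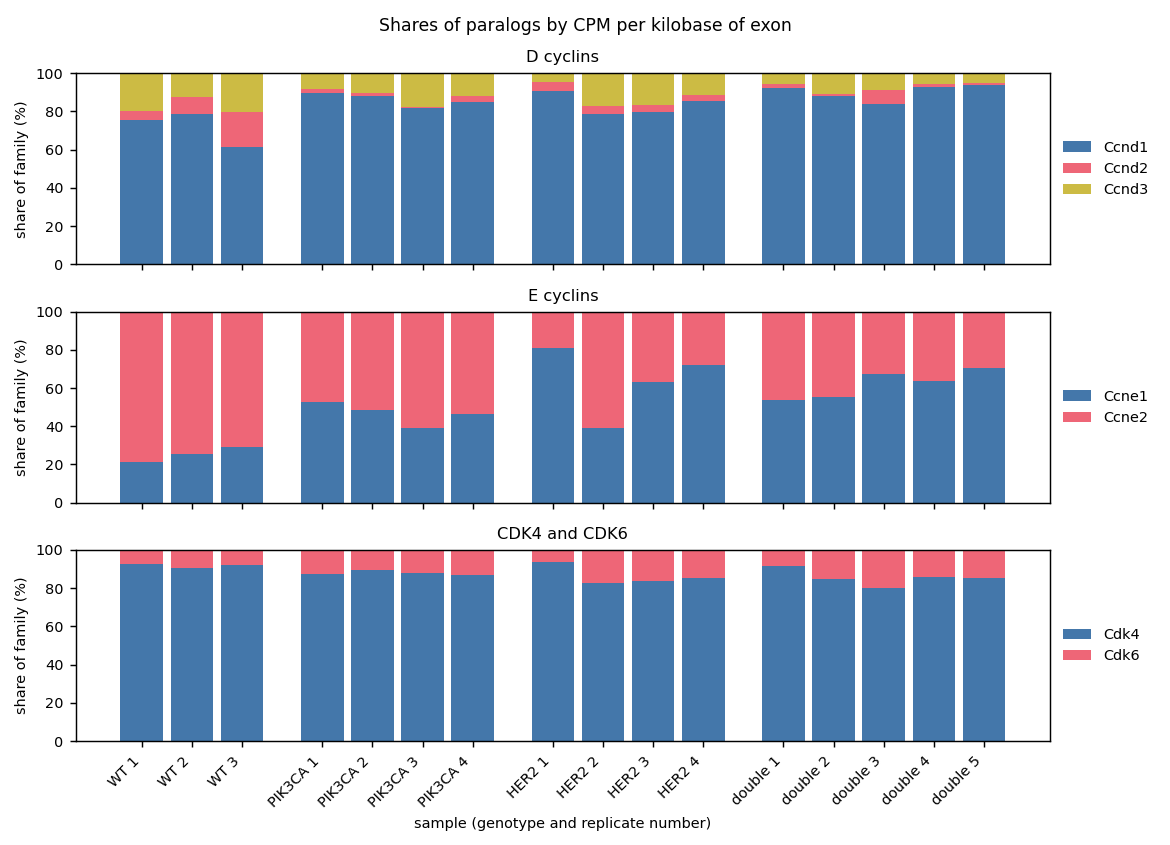
Share of each paralog in its family (percent of CPM per kilobase of exon, vertical axis) in each of the 16 samples, 1 bar per sample. The Ccne1 part is below 30% in the WT bars and above 50% in the double mutant bars, and the Ccnd1 part is the largest D cyclin part in all bars.

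The log2 ratio of paralogs within each sample was tested between genotypes with the exact two-sided permutation test, for 4 ratios and 6 pairs of genotypes. With p adjusted over these 24 tests none was under 0.05, and the lowest adjusted p was 0.152. With 3 WT samples, p cannot go below 0.0571 against 4 samples or 0.0357 against 5. The ratio of Ccne1 to Ccne2 was 1.36 higher on the log2 scale in PIK3CA mutants than in WT (exact p 0.0571), 2.44 higher in HER2 mutants (exact p 0.0571) and 2.28 higher in double mutants (exact p 0.0357). It was also 0.92 higher in double than in PIK3CA mutants (exact p 0.0159). The groups did not overlap in these 4 comparisons, so each p is the smallest its design allows. The ratio of Ccnd1 to Ccnd2 was 2.62 higher in PIK3CA mutants and 1.53 higher in HER2 mutants than in WT without overlap (exact p 0.0571 for both), and 2.62 higher in double mutants with overlap (exact p 0.0714). The ratio of Ccnd1 to Ccnd3 was 1.65 higher in double mutants than in WT without overlap (exact p 0.0357), and that of Cdk6 to Cdk4 was 0.63 higher in PIK3CA mutants without overlap (exact p 0.0571).

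Covariation was measured after each sample's log2 CPM was set against the mean of its genotype, so that differences between genotypes do not enter. Over the 16 samples, 36 relations were computed: 28 pairs of members, and each member with the mean of 20 mitosis genes such as Mki67, Bub1b and Ccnb1, which mark dividing cells. With the p of Pearson's r adjusted over the 36, 3 relations had an adjusted p under 0.05. All levels in a sample share its library and scaling.

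Ccne1 varied with the mitosis genes, with r of 0.85 (permutation p 0.00067, adjusted 0.0241) and rho of 0.81 (permutation p 0.00512, adjusted 0.0461). HER2 replicate 1 was highest in both, 1.25 above its genotype mean for Ccne1 and 1.26 for the mitosis genes, and HER2 replicate 2 was lowest in both, at -1.17 and -0.81. Without these 2 samples, the farthest from the median, r was 0.82 (permutation p 0.00783, adjusted 0.094). The adjusted p was also over 0.05 without PIK3CA replicate 3 or HER2 replicate 1, 2 or 3 (0.0611 to 0.087), with r of 0.75 to 0.90 over all fits that left out a sample.

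Ccnd3 went the other way. It was lower where the mitosis genes were higher, with r of -0.79 (permutation p 0.00243, adjusted 0.031) and rho of -0.84 (permutation p 0.00048, adjusted 0.0173). Without HER2 replicates 2 and 4, the farthest samples, r was -0.83 (permutation p 0.00165, adjusted 0.0329). Ccnd3 was also lower where Cdk4 was higher, with r of -0.77 (permutation p 0.00258, adjusted 0.031) and rho of -0.82 (permutation p 0.00343, adjusted 0.0461), and without the same 2 samples r was -0.71 (permutation p 0.0132, adjusted 0.119). Leaving out single samples kept r between -0.88 and -0.75 with the mitosis genes and between -0.82 and -0.70 with Cdk4. The adjusted p then exceeded 0.05 without any 1 of PIK3CA replicates 1 to 3, HER2 replicates 2 and 3 or the 5 double mutants (0.0505 to 0.137 with the mitosis genes and 0.0505 to 0.167 with Cdk4), and for Cdk4 also without HER2 replicate 1 (0.0574).

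Cdk4 and Ccnd1 had positive relations with the mitosis genes that did not pass by r. For Cdk4 r was 0.67 (permutation p 0.00649, adjusted 0.0584) and rho 0.81 (permutation p 0.00489, adjusted 0.0461), with r of 0.67 (adjusted 0.293) without double mutant replicates 1 and 3. For Ccnd1 r was 0.71 (permutation p 0.0152, adjusted 0.109) and rho 0.56 (permutation p 0.0557, adjusted 0.239), and r was 0.53 (adjusted 0.293) without HER2 replicate 1 and WT replicate 2. Ccnd1 and Ccne1 had r of 0.67 (permutation p 0.0503, adjusted 0.201) and rho of 0.50 (permutation p 0.095, adjusted 0.285), and r was 0.35 without the same 2 samples. Without HER2 replicate 1 alone r was 0.31 and without WT replicate 2 alone 0.72, so this relation rests on HER2 replicate 1. Without WT replicate 3, the relations of Ccnd1 with the mitosis genes (r 0.91) and with Ccne1 (r 0.84) both had an adjusted p of 0.0081. Ccnd1 and Ccnd3 had r of -0.58 (permutation p 0.038, adjusted 0.174) and rho of -0.64 (permutation p 0.00845, adjusted 0.0568). The other members had r with the mitosis genes of 0.50 (Ccnd2), -0.39 (Cdk6), 0.15 (Ccne2) and -0.16 (Cdk2), none of which passed (lowest adjusted p 0.213). Within families, r with the mitosis genes was 0.85 for Ccne1 and 0.15 for Ccne2, 0.71 for Ccnd1 and -0.79 for Ccnd3. Differences between these correlations were not tested.

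**Figure D4:**
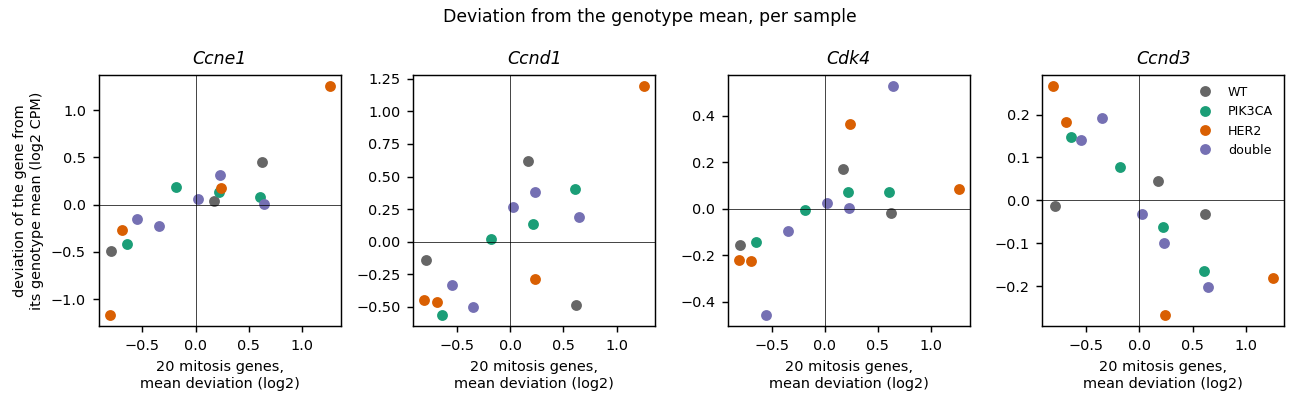
Deviation of Ccne1, Ccnd1, Cdk4 and Ccnd3 from the genotype mean (vertical axis, log2 CPM) against the mean deviation of 20 mitosis genes (horizontal axis, log2), 1 point per sample, coloured by genotype. Points rise to the right for Ccne1, Ccnd1 and Cdk4 and fall for Ccnd3, and HER2 replicate 1 is the point farthest to the right.

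HER2 replicate 1 was the HER2 mutant farthest from the genotype mean in several members, of which only Ccnd1 is among the outlying values flagged below. Its deviations were 1.19 for Ccnd1, 1.36 for Ccnd2, 1.25 for Ccne1 and -1.02 for Cdk6. Its mitosis genes summed to 682 CPM, where the other HER2 mutants had at most 302, and its S-phase entry genes to 589 CPM. By mean log2 CPM its immune markers stood at 3.30, the highest among the mutants, and its fibroblast markers at 1.37, where the other HER2 mutants had 0.41 to 5.46. By summed CPM its immune markers were at 349, where the other HER2 mutants had 272 to 456. Its fibroblast markers summed to 46.2 CPM, the lowest of all samples, where the other HER2 mutants had 379 to 788. Its basal and myoepithelial markers summed to 972 CPM, the highest among HER2 mutants. The part of these in its cyclin levels was not tested.

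The inhibitors of these kinases were described next, in a list of 7. In HER2 mutants 1 rose against WT and in double mutants 3, and none fell. In PIK3CA mutants edgeR called none, with 2 inhibitors at an unadjusted p under 0.05 and 2 called by DESeq2. Of all genes, 16.8% had such an unadjusted p in this comparison, and DESeq2 called 1869 of 24252. Cdkn1a, which encodes p21, rose in HER2 mutants (log2 fold change 2.24, edgeR adjusted p 0.0204, SE 0.562) and in double mutants (2.84, edgeR adjusted p 0.00418, SE 0.567). Its double mutant samples had 148, 331, 324, 158 and 167 CPM, where WT samples had 17.8, 51.4 and 25.6. Cdkn2a, which encodes p16 and p19ARF, rose in double mutants (2.15, edgeR adjusted p 0.0113, SE 0.504), and so did its neighbour Cdkn2b (1.20, edgeR adjusted p 0.0115, SE 0.283), named after its value was seen. The median over the list was 0.42, 0.34 and 0.57 in PIK3CA, HER2 and double mutants. Ccnd1 and Cdkn1a were both higher than in WT in every mutant sample. For a single gene such an order was found in 13.8%, 9.81% and 9.68% of all genes in PIK3CA, HER2 and double mutants. The lowest mutant sample for Cdkn1a, HER2 replicate 4, was at 5.85 log2 CPM, close to 5.68 in WT replicate 2. Between HER2 and PIK3CA mutants, 1 inhibitor was lower in HER2 mutants, Cdkn2c (-0.86, edgeR adjusted p 0.048, SE 0.233), which encodes p18. That call passed in only 1 of the 8 fits that left out a sample (without HER2 replicate 1) and not with upper-quartile scaling (edgeR adjusted p 0.0577). The rise of Cdkn1a in double mutants passed without any single sample, and that in HER2 mutants did not pass without WT replicate 1 or 3 (edgeR adjusted p 0.0972 and 0.106) or in a fit of HER2 mutants and WT alone (0.104). In double mutants Cdkn2a and Cdkn2b did not pass without the same WT samples (edgeR adjusted p 0.0658 and 0.0779 for Cdkn2a, 0.0598 and 0.0871 for Cdkn2b).

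Of the 3 pocket proteins, the substrates of these kinases, 2 fell in HER2 and in double mutants against WT. Rb1 had 603, 544 and 578 CPM in WT and 131, 132, 234 and 94.6 CPM in HER2 mutants, without overlap (log2 fold change -1.96, edgeR adjusted p 0.000375, SE 0.239). Such an order was found in 12.4% of all genes. In double mutants it had 277, 297, 391, 403 and 338 CPM (-0.75, edgeR adjusted p 0.039, SE 0.224), again below all WT samples. PIK3CA mutants had 368, 297, 430 and 354 CPM, also below all WT samples, at -0.67 against WT on the log2 scale (edgeR adjusted p 0.141, SE 0.236), which passed in a fit of these 2 genotypes alone (0.00826). Rbl2, which encodes p130, the pocket protein of resting cells, fell by 0.57 on the log2 scale in HER2 mutants (edgeR adjusted p 0.0151, SE 0.135) and by 0.65 in double mutants (edgeR adjusted p 0.00365, SE 0.128). Of the cell-cycle lists, only Rb1 had an interaction that passed in edgeR's test, where DESeq2 also called 1 activator and 1 mitosis gene (Rb1 1.87, edgeR adjusted p 0.012, SE 0.318): the double mutants were 1.20 above HER2 mutants (edgeR adjusted p 0.00961, SE 0.215), as HER2 mutants were 1.29 below PIK3CA mutants (edgeR adjusted p 0.00586, SE 0.224). The fall of Rb1 in HER2 mutants and its interaction passed without any single sample, while its fall in double mutants did not pass without any 1 of the WT samples or double mutant replicates 1, 2 and 5 (edgeR adjusted p 0.063 to 0.131). The fall of Rbl2 in HER2 mutants did not pass without WT replicate 1 or 3 (edgeR adjusted p 0.072 and 0.0911) or in a fit of HER2 mutants and WT alone (0.0925). In a fit of double and HER2 mutants alone, Rb1 did not pass (edgeR adjusted p 0.0873). Summed over the 3 genes, HER2 mutants had 151 to 291 CPM and WT 609 to 685 CPM, while summed over the 8 members HER2 mutants had 471 to 819 CPM and WT 272 to 395 CPM.

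Genes that activate the kinases or assemble the complexes showed 1 call among 6 in both HER2 and double mutants, the phosphatase Cdc25a, which removes inhibitory phosphates from CDK2 (log2 fold change 1.03, edgeR adjusted p 0.00383, SE 0.189, and 0.81, edgeR adjusted p 0.0083, SE 0.181). Among 11 measured genes of cyclin turnover, 1 rose in each of these genotypes, the CDK-binding protein Cks2 (0.83, edgeR adjusted p 0.0486, SE 0.254, and 1.23, edgeR adjusted p 0.00448, SE 0.249). In PIK3CA mutants edgeR called none of either list, with 1 and 3 genes at an unadjusted p under 0.05 and 1 gene of each called by DESeq2. Such an unadjusted p was found for 16.8% of all genes, and DESeq2 called 1869 of 24252. Cdc25a passed in HER2 mutants without any single sample, but not in a fit of HER2 mutants and WT alone (edgeR adjusted p 0.0568). In double mutants it did not pass without WT replicate 1 or 3 (edgeR adjusted p 0.0554 and 0.0576). The call of Cks2 in HER2 mutants ended without any 1 of the WT samples or HER2 replicates 1, 3 and 4 (edgeR adjusted p 0.0553 to 0.147) and in a fit of HER2 mutants and WT alone (0.113), while that in double mutants passed without any single sample.

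Of 20 genes of S-phase entry, many of them E2F targets, 1 rose in HER2 mutants, E2f1 itself (0.92, edgeR adjusted p 0.0252, SE 0.240), and 1 in double mutants, the replication licensing factor Cdt1 (0.99, edgeR adjusted p 0.0487, SE 0.310). Their medians were 0.14, 0.58 and 0.38 in PIK3CA, HER2 and double mutants. In PIK3CA mutants edgeR called none against WT, none had an unadjusted p under 0.05 (16.8% of all genes had), and DESeq2 called 0. DESeq2 called more of the list in the other genotypes, 3 in HER2 and 2 in double mutants, all higher. Of all 24252 genes it called 1916 and 2028 higher in these comparisons. The edgeR calls, 1 of 20 in each, stood beside 4.75% and 5.03% of all genes that rose. E2f1 did not pass without WT replicate 1 or 3 or HER2 replicate 1 (edgeR adjusted p 0.0514 to 0.128) or in a fit of HER2 mutants and WT alone (0.134), nor Cdt1 without any 1 of the WT samples or double mutant replicates 2 and 3 (edgeR adjusted p 0.096 to 0.177) with upper-quartile scaling (0.0578) or in a fit of double mutants and WT alone (0.0921). Gins2, a subunit of the replicative helicase complex, was lower in HER2 than in PIK3CA mutants (-0.80, edgeR adjusted p 0.0468, SE 0.215), and it passed in only 1 of the 8 fits that left out a sample, that without HER2 replicate 1.

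Of the 20 mitosis genes, 2 rose in PIK3CA mutants, 7 in HER2 mutants and 6 in double mutants against WT by edgeR's test, none fell, and the medians were 1.12, 1.53 and 1.45. DESeq2 called 2, 13 and 13, all higher. Of all 24252 genes, 1.49%, 4.75% and 5.03% rose by edgeR's test in the same order, and DESeq2 called 756, 1916 and 2028 higher. Bub1b, a spindle checkpoint kinase, rose in all 3 (1.403, 2.10 and 1.92, edgeR adjusted p 0.0401, 0.00351 and 0.00303). Cdc20, an activator of the anaphase-promoting complex, also rose in all 3 (1.28, 1.29 and 1.66, edgeR adjusted p 0.044, 0.027 and 0.00465). Ube2c, the ubiquitin-conjugating enzyme of that complex, rose in HER2 and double mutants (2.25 and 1.83, edgeR adjusted p 0.0208 and 0.038) and was at 1.49 in PIK3CA mutants (edgeR adjusted p 0.158). Cyclin B1, Ccnb1, rose in double mutants (1.87, edgeR adjusted p 0.049). The values of Cdc20 in HER2 and double mutants and of Ube2c in PIK3CA and double mutants were picked after they were seen. Mki67 varied widely, with 31.2 to 271 CPM in HER2 mutants and 10.6 to 53.0 CPM in WT, and its log2 fold change of 1.79 did not pass (edgeR adjusted p 0.132, SE 0.727). DESeq2 called it (adjusted p 0.0451). Several of these calls lay near the threshold: in PIK3CA mutants those of Bub1b and Cdc20 ended without any 1 of the WT samples or PIK3CA replicates 1, 2 and 4 (edgeR adjusted p 0.0696 to 0.189), and in double mutants that of Ccnb1 ended without any 1 of the samples except double mutant replicate 3 (edgeR adjusted p 0.0524 to 0.195). Ube2c did not pass in HER2 mutants without WT replicate 1 or 2 (edgeR adjusted p 0.0933 and 0.06), and in double mutants it passed in 1 of the 8 fits that left out a sample, that without double mutant replicate 3 (0.0513 to 0.165 in the others). Cdc20 did not pass in HER2 mutants without any 1 of the WT samples or HER2 replicate 1 (edgeR adjusted p 0.0535 to 0.118). Bub1b passed in HER2 and double mutants, and Cdc20 in double mutants, without any single sample. In a fit of HER2 mutants and WT alone, Bub1b, Cdc20 and Ube2c did not pass (edgeR adjusted p 0.0653, 0.138 and 0.116). Between the mutants none of the mitosis genes passed in edgeR's test, and DESeq2 called 0. At an unadjusted p under 0.05 there were 1 (double against PIK3CA), 0 (double against HER2) and 2 (HER2 against PIK3CA). Of all genes, 12.4%, 17.8% and 19.4% had such a p.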

How the data were processed

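The deposited table holds raw read counts per gene for 16 RNA-seq samples, and a 2nd table of the authors holds a normalized signal, the counts divided by DESeq2 size factors (largest relative difference from a recomputation 5.49e-10). Per the submitters' processing notes, the tools were bcl2fastq 2.20, STAR 2.0.4b, Subread, featureCounts 1.4.5 and DESeq2 1.33.5, with the build mm10. The strand setting and the annotation are not given in the sources used here. Of 55774 entries, 287 were identical repeats of another entry and were dropped, which left 55487, and 24252 passed edgeR's filter on low counts. Counts were fitted over all 4 genotypes (12 residual degrees of freedom) with TMM factors of 0.920 to 1.08 and edgeR's quasi-likelihood test, without a replicate block, with Benjamini-Hochberg adjustment over the 24252 genes and a threshold of 0.05. A standard error is the log2 fold change divided by the root of F. Levels are CPM, log2-transformed with a prior count of 2 for correlations. Log2 ratios of paralogs used a pseudocount of 0.5 counts and the exact permutation test. Covariation used 100000 permutations.

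Alternatives were upper-quartile and median-of-ratios scaling, no filter, DESeq2, limma on log2 of the normalized signal with a pseudocount of 1, a replicate block, fits of 2 genotypes and leaving out each sample. Leaving out samples for the covariation, and all alternatives for the other genes of the pathway, were chosen after seeing the data. The edgeR step was tested on simulated counts. The members, the gene lists and the tests were chosen with earlier results of these data known. Of each other list, at most the 2 highest and the 2 lowest called genes of a comparison are named, beside Cdkn1a, Rb1, E2f1, Mki67, Erbb2 and Pik3ca, and any other name is said to be chosen by its value. Of 12 genes of cyclin turnover, 11 were tested, since the symbol Skp1 was not matched. Software was R 4.3.3, edgeR 4.0.16, limma 3.58.1, DESeq2 1.42.0, Python 3.11.15, numpy 2.4.6, pandas 2.3.3, scipy 1.17.1 and matplotlib 3.10.9.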

Additional observations from a re-analysis of the deposited data

Results flagged for a closer look

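Log2 levels of the 8 members and their 4 log2 paralog ratios were examined in the genotypes with 4 or 5 samples. Of these 36 groups of values, 3 had a sample far from the others, and chance gives about 1 in 20. Cdk2 in PIK3CA replicate 4 was at 4.76 log2 CPM, the lowest of its genotype, with a gap to the nearest sample of 0.84 of the whole range. Ccnd1 in HER2 replicate 1 was at 8.999 log2 CPM, the highest of its genotype, with a gap of 0.891 of the range. Cdk6 in double mutant replicate 1 was at 6.30 log2 CPM, the lowest of its genotype, with a gap of 0.755 of the range. Rb1 had an interaction of 1.87 on the log2 scale (edgeR adjusted p 0.012, SE 0.318): its difference between samples with and without the HER2 mutation was not the same with and without the PIK3CA mutation. All 4 PIK3CA, all 4 HER2 and all 5 double mutant samples were below the WT samples. In HER2 mutants against WT 12.4% of all genes showed that order, and shares for PIK3CA and double mutants are not given here. WT samples came from normal breast and mutants from tumors, so this interaction and the tissue of origin cannot be told apart.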

How the results depend on the processing

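Counts of genes called over all 24252 moved by over 1.5 times in several settings. With DESeq2 they were 1869 in PIK3CA mutants against WT (1096 in edgeR), 666 in double against PIK3CA mutants (163), 1715 in double against HER2 mutants (606), 2219 in HER2 against PIK3CA mutants (1069) and 966 for the interaction (257). Fits of the 2 genotypes alone gave 4136 in PIK3CA mutants and 541 in HER2 mutants (2518) against WT, 364 and 37 in double against PIK3CA and HER2 mutants, and 534 in HER2 against PIK3CA mutants. The cause was not tested. Leaving out each sample gave 396 to 1043 in PIK3CA, 733 to 2693 in HER2 and 1173 to 2961 in double mutants (2850) against WT, 17 to 143 and 256 to 975 in double against PIK3CA and HER2 mutants, 427 to 1166 in HER2 against PIK3CA mutants and 54 to 382 for the interaction.

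With the replicate number as a block, counts were 1625 in HER2 mutants against WT, 19 and 118 in double against PIK3CA and HER2 mutants, 552 in HER2 against PIK3CA mutants and 35 for the interaction, and among the members Cdk6 in HER2 mutants was no longer called (adjusted p 0.0672). Of the other named pathway genes, Cdkn1a, Cks2, E2f1, Ube2c and Cdc20 lost their calls in HER2 mutants against WT. So did Bub1b and Cdc20 in PIK3CA mutants, and Rb1, Ccnb1 and Ube2c in double mutants. Cdkn2c and Gins2 lost theirs in HER2 against PIK3CA mutants. Same-numbered samples did not deviate together in every pair of genotypes. In double and HER2 mutants their mean correlation was 0.157 and the lowest 0.0711, beside a mean of -0.041 for samples of unlike number. In the other comparisons the mean of same-numbered samples was at most 0.0425. So few pairs cannot show whether same-numbered samples share a batch, and the labels do not say.

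Members' log2 fold changes, over all comparisons and settings, kept direction and side of the threshold in 827 values, lost the call in 25, gained one in 11 and turned in 33, and none of those that turned was called. Ccnd2 turned to -0.073 (block) and -0.00043 (limma) in HER2 mutants against WT, to -0.18 (limma) in double mutants against WT and to 0.10 (block) in double against HER2 mutants, and the Cdk2 interaction to -0.034 (upper quartile). Without single samples, Ccnd2 ran from -0.64 to 0.42 in HER2 and -0.64 to 0.39 in double mutants against WT. In double against PIK3CA mutants Cdk4 ran from -0.0084 to 0.25 and Ccne2 from -0.066 to 0.18. In double against HER2 mutants Ccnd2 ran from -0.69 to 0.67, Cdk4 from -0.055 to 0.23, Cdk6 from -0.095 to 0.34 and Ccne1 from -0.22 to 0.65. In HER2 against PIK3CA mutants Ccnd1 ran from -0.66 to 0.10 and Cdk4 from -0.088 to 0.12, and the interactions of Cdk4 and Cdk2 from -0.22 to 0.069 and -0.066 to 0.078. Of the values of the other pathway genes, 336 kept call and direction, 107 lost the call and 2 gained one.

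No paralog ratio passed in any setting. The Ccnd1 share beside Ccnd2 was -0.54 percentage points in double against PIK3CA mutants (log2 ratio 0.01, and -0.28 to 0.52 without single samples). Other ratios that turned ran from -0.47 to 0.22 (Ccnd1 to Ccnd3) and -0.057 to 0.48 (Cdk6 to Cdk4) in HER2 against PIK3CA mutants, and from -0.21 to 0.37 (Cdk6 to Cdk4) and -0.68 to 0.23 (Ccne1 to Ccne2) in double against HER2 mutants. Over the levels of the 13 mutant samples, 6 relations passed, against 3, and leaving out single samples gave 0 to 7. Correlations with the mitosis genes turned for Cdk6 (0.15), Ccne2 (-0.14) and Cdk2 (0.48) without the 2 farthest samples, and ran from -0.59 to 0.29, -0.024 to 0.38 and -0.34 to 0.18 without single samples. With 3 WT samples, no exact test of a ratio against WT can pass after adjustment.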

Other observations

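The genes whose log2 CPM was most like that of each member over the 16 samples are given as a description, by Pearson's r among 11690 genes with a mean log2 CPM of at least 1 and a symbol that is not a clone or predicted-gene name. The samples share their genotype differences and libraries, so such r are high for many pairs of genes. Ccnd1 was close to Slco2a1 (r 0.94) and Cdc25c (0.93), and for Ccne1 the closest were Srebf2 (0.95), Bub1b (0.94) and Pycr1 (0.94). Ccnd3 was close to Mknk2 (0.95) and Pgf (0.95). Ccnd2 had no gene closer than Cdc14b (0.75), Rap2a (0.75) and Cdc25b (0.74). Among the kinases, Cdk4 was closest to Cops7a (0.94), Prmt5 (0.90) and Elp2 (0.89), Cdk6 to Larp1b (0.92), Dhrs9 (0.91) and Rem2 (0.89), and Cdk2 to Krt8 (0.94), Bcl10 (0.94) and Dcun1d1 (0.93). Ccne2 was closest to Ythdf2 (0.87), Slc30a1 (0.85) and Btf3l4 (0.85), with no gene in common with Ccne1.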
